A study of Mus musculus with 64 samples.

Results

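The 6 genes described here belong to insulin-like growth factor (IGF) and insulin receptor signaling, and were taken by name from the 55487 genes counted. They are *Igf1*, *Igf1r*, *Igf2r*, *Insr*, *Irs2* and *Igfbp4*, and all 6 were among the 14537 genes that passed the filter on low counts. They were followed in murine bone marrow-derived macrophages (BMMs), 64 RNA-seq libraries in 16 groups of 4. BMMs came from female *Ahr*+/+ C57BL/6JRj mice or from *Ahr*-/- mice on the C57BL/6 background, which lack the aryl hydrocarbon receptor (AhR), aged 8 to 12 weeks. Marrow from 4 mice per genotype was differentiated with L929 supernatant. Cells were exposed for 6 h to benzo[a]pyrene (BaP, 1 µM), to indole-3-carbinol (I3C, 10 µM) or to the vehicle dimethyl sulfoxide (DMSO, 0.01%), and then activated with heat-killed *Salmonella* Enteritidis (hk *S*.E., 10000000 per ml) for 3 h or 20 h. Resting BMMs had DMSO and no hk *S*.E., so that every group, resting ones included, had been in DMSO. The word activated alone means DMSO followed by hk *S*.E.

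IGF1 and insulin are related hormones. IGF1 is read by the receptor tyrosine kinase IGF1R, and insulin by its relative INSR. Both receptors recruit adaptors such as IRS2, which start signaling through PI3K and AKT towards mTOR and away from FOXO transcription factors. IGF2R, also known as the cation-independent mannose 6-phosphate receptor, has no kinase. It carries lysosomal enzymes and takes up IGF2. IGFBP4 binds IGFs outside the cell and keeps them from their receptor. Macrophages are known as a source of IGF1 in injured tissue, and AhR, once bound by a ligand, acts on transcription from AhR response elements in DNA.

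By the annotation on GRCm38, *Igf1* (ENSMUSG00000020053.18) lies at chr10:87858265-87937042 on the plus strand, *Igf1r* (ENSMUSG00000005533.10) at chr7:67952827-68233668 on the plus strand and *Insr* (ENSMUSG00000005534.10) at chr8:3122061-3279617 on the minus strand. *Igf2r* (ENSMUSG00000023830.14) lies at chr17:12682406-12769664 on the minus strand, *Irs2* (ENSMUSG00000038894.7) at chr8:10984681-11008458 on the minus strand and *Igfbp4* (ENSMUSG00000017493.12) at chr11:99041244-99054392 on the plus strand. Counts are the read pairs on the exons of each gene, on its own strand. The antisense genes *Igf1os* at *Igf1* and *Airn* at *Igf2r* were therefore counted apart.

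The sequences before the start sites of *Igf1*, *Igf1r* and *Irs2* are shown because these 3 genes differed between the genotypes after activation. Each is the 250 bases upstream of the RefSeq start on GRCm38.p6, 5′ to 3′ on the strand of the gene, with the core of the AhR response element (AHRE I, GCGTG, or CACGC where it lies on the other strand) in capitals. They span chr10:87860861-87861110 for *Igf1*, chr7:67952007-67952256 for *Igf1r* and chr8:11008930-11009179, minus strand, for *Irs2*.
Igf1: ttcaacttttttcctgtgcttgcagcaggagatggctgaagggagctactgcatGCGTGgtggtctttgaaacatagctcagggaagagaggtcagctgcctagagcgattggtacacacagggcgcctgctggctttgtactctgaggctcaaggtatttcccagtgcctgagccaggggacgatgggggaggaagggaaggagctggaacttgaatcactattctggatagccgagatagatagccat
Igf1r: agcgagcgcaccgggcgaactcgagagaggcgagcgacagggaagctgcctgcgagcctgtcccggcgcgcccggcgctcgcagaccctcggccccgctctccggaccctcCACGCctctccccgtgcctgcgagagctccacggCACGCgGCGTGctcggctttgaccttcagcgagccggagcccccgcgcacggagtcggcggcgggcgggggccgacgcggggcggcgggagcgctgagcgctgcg
Irs2: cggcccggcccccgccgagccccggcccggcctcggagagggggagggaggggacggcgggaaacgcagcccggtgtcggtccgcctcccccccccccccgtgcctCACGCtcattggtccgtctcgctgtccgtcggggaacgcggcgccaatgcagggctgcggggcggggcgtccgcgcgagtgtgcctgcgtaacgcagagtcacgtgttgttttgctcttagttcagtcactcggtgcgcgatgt
*Igf1* held 1 core, 196 bases before the start, *Igf1r* held 3, at 139, 105 and 99 bases, and *Irs2* held 1, at 144 bases. In windows from 250 bases before to 50 bases after the start, *Igf2r* held 2 cores and *Igfbp4* none, and 32.39% of the 32851 promoters of that length in the table held at least 1. The FOXO core TGTTTAC, searched on both strands, was in none of these 5 windows and in 3.65% of all. A match is a description of letters and was not tested for binding, and a promoter of *Insr* was not analysed here.

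Libraries held 12152496 to 50644601 counts on genes, apart from 1 resting *Ahr*+/+ library at 20 h with 233047331, and the median was 24499165. Levels are given as CPM, the share of a library's counts scaled after TMM normalization. The *Ahr* gene itself was counted at 1.09 to 14.9 CPM in *Ahr*+/+ and at 5.11 to 28.1 CPM in *Ahr*-/- libraries, so that counts over the whole gene cannot check a deletion of part of it. *Ahrr*, a known AhR target, lay at 4.18 to 6.96 CPM with BaP against 0.346 to 0.582 with DMSO in activated *Ahr*+/+ BMMs at 3 h, and at 17.2 to 20.7 against 4.58 to 6.16 at 20 h, and did not exceed 1.18 CPM with BaP in *Ahr*-/- BMMs. The 8 macrophage markers summed to 17349 to 32713 CPM in every library, and T cell and erythroid markers stayed below 1 CPM in sum. B cell markers did not exceed 6.27 CPM in sum and mast cell or basophil markers 1.34. Neutrophil markers, led by *S100a8* and *S100a9*, moved with activation: over both genotypes the 8 summed to 16.8 to 45.3 CPM at rest and 115 to 268 on activation at 3 h, and to 14.2 to 70.7 and 25.5 to 57.0 at 20 h, with *Elane* and *Mpo* below 0.275 CPM in every library. The sum of the 8 fibroblast markers, led by *Pdgfrb*, was 0.564 to 3.41 CPM at rest and 7.30 to 21.8 on activation at 3 h, and 0.628 to 8.75 and 4.21 to 10.2 at 20 h. The 5 dendritic cell markers, led by *Ccr7*, had sums of 0.0950 to 1.28 and 1.09 to 3.87 CPM at 3 h, and of 0.247 to 1.53 and 3.82 to 39.6 at 20 h. The part of these markers in the activation responses below was not tested. *Ahr*-/- libraries 1 and 2 stood apart from 3 and 4: in at least 6 of the 8 *Ahr*-/- groups both lay on the same side of both others for 35.3% of genes tested, against 3.56% in *Ahr*+/+ BMMs. Genotype results are therefore also given from each pair of *Ahr*-/- libraries alone, an alternative chosen after seeing the data. The pairs were formed because their members are alike, so a fit of either pair leaves out the spread between pairs. Its adjusted p-values can be too small and are no independent test of the genotype calls.

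Per kilobase of exon, *Igf1*, *Igf2r* and *Igfbp4* were abundant transcripts and both tyrosine kinase receptors and the adaptor were scarce. The median group level was 63.8 CPM per kb for *Igf1*, 23.3 for *Igf2r* and 11.5 for *Igfbp4*. Ranked instead by the mean over the 16 groups, they lay at the percentiles 93.4, 87.0 and 80.1 of 14535 genes. The median for *Insr* was 2.07 CPM per kb, for *Irs2* 1.11 and for *Igf1r* 0.620, with percentiles of 38.4, 32.3 and 21.5 by the mean. From the lowest to the highest of the 16 group means, *Igf1r* spanned 14.0-fold, *Igfbp4* 8.79-fold, *Igf1* 7.90-fold, *Irs2* 6.01-fold, *Insr* 3.68-fold and *Igf2r* 1.73-fold. The plot of each library by group shows where these spans come from.

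**Figure D1:**
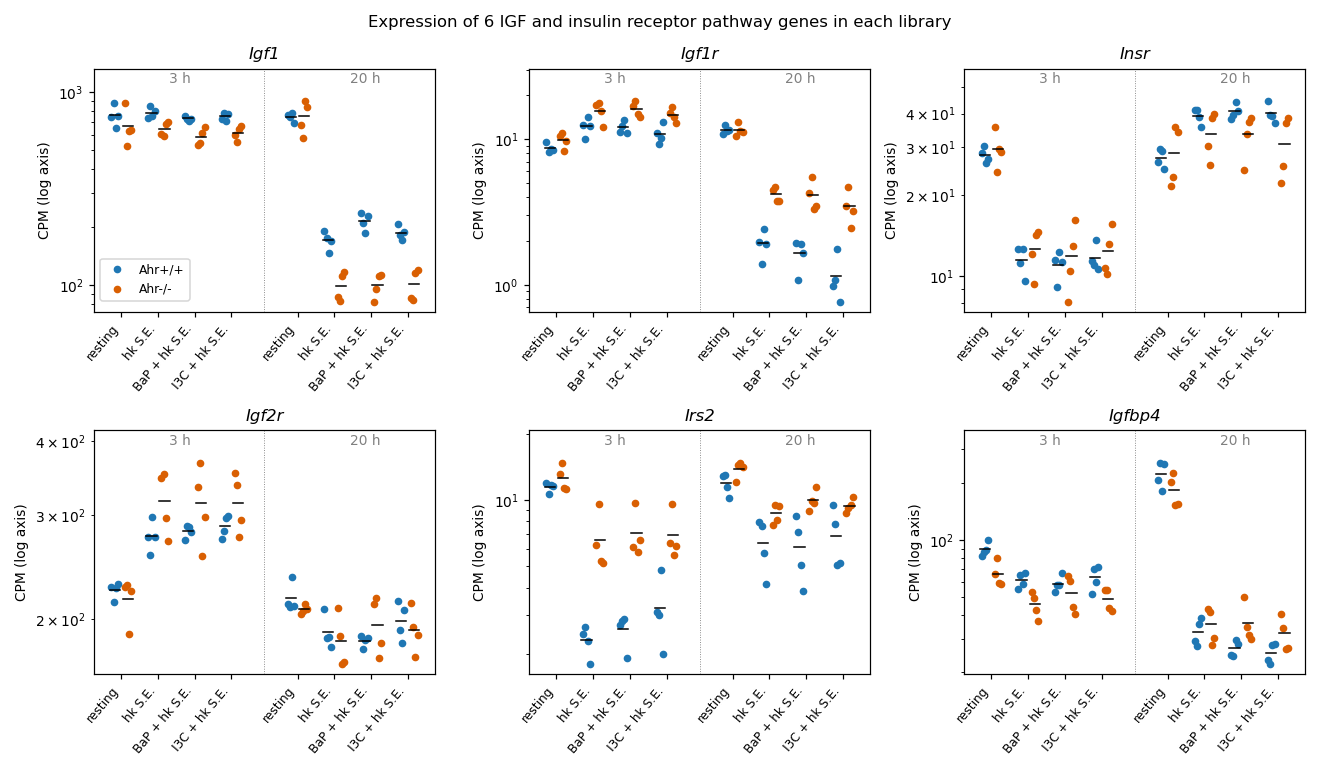
CPM (log axis) of the 6 genes in each of 64 libraries, by condition at 3 h (left of the dotted line) and 20 h (right), with *Ahr*+/+ libraries in blue, *Ahr*-/- libraries in orange and a bar at the mean of 4 libraries. *Igf1* and *Igf1r* are low in the activated groups at 20 h, *Insr* is low in those at 3 h, and *Igfbp4* is high in resting BMMs at 20 h.

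*Igf1*, the growth factor, fell by 20 h of activation in both genotypes and was not called at 3 h. In resting *Ahr*+/+ BMMs at 20 h, the 4 libraries held 766, 748, 784 and 696 CPM, and in activated ones 192, 176, 146 and 169.7 CPM. No activated library came near a resting one, and the fall was by 2.13 ± 0.13 on the log2 scale (SE), 4.38-fold lower (adjusted p = 6.92e-21, edgeR quasi-likelihood test). The share of all genes without overlap between resting and activated libraries was not counted, here or for the genes below. At 3 h the resting libraries held 747, 881, 650.1 and 754 CPM and the activated ones 737, 844, 752 and 801 CPM. These overlapped, and the log2 fold change was 0.05 with a 95% interval from -0.21 to 0.30 (adjusted p = 0.764).

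In *Ahr*-/- BMMs *Igf1* reached lower levels still. At 20 h, resting libraries held 677, 580.0, 904 and 843 CPM and activated libraries 86.4, 82.6, 111 and 116 CPM, a fall by 2.92 ± 0.14 on the log2 scale, 7.58-fold lower (adjusted p = 4.10e-26, edgeR). All 4 activated *Ahr*-/- libraries lay below all 4 activated *Ahr*+/+ libraries, with 99.1 ± 17.0 CPM (SD, n = 4) against 171 ± 18.9, 1.72-fold lower in *Ahr*-/- BMMs (log2 fold change -0.79 ± 0.13, adjusted p = 5.78e-06, edgeR). Resting BMMs of the genotypes overlapped at both times, with log2 fold changes of -0.18 at 3 h (adjusted p = 0.767) and 0.01 at 20 h (adjusted p = 0.999, edgeR).

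The activation response of *Igf1* at 20 h thus differed between genotypes by -0.79 ± 0.18 on the log2 scale (adjusted p = 0.00211, edgeR interaction). Leaving out activated *Ahr*-/- library 2 ended this call, at -0.72 with an adjusted p of 0.0102, and so did a fit of the compared groups alone (adjusted p = 0.0331). The difference between activated genotypes was -1.01 with *Ahr*-/- libraries 1 and 2 alone (adjusted p = 6.15e-08) and -0.59 with 3 and 4 alone (adjusted p = 7.66e-06, edgeR). Both p-values leave out the spread between these pairs. The mean of *Igf1* was 589 to 783 CPM in the 10 groups that were resting or activated for 3 h, 171 to 215 in the 3 *Ahr*+/+ groups and 99.1 to 101 in the 3 *Ahr*-/- groups activated for 20 h. Of 15 neighbours in that order, 3 lay further apart than the larger of their SDs: the steps between these 3 sets, and that from I3C to BaP in *Ahr*+/+ BMMs at 20 h.

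*Igf1r*, the receptor for IGF1, rose at 3 h and fell at 20 h. In *Ahr*+/+ BMMs at 3 h, resting libraries held 9.54, 8.23, 8.58 and 8.49 CPM and activated libraries 12.5, 10.01, 14.1 and 12.4 CPM, all above the resting ones. The rise was 1.41-fold (log2 fold change 0.49 ± 0.16, adjusted p = 0.00730, edgeR). It passed the threshold narrowly, and the call was lost without resting library 2, 3 or 4 or activated library 3 (adjusted p = 0.0156 to 0.0229). It was also lost without the filter and with a covariate for the series of library identifiers (adjusted p at most 0.0166, edgeR). Resting and activated libraries shared only part of these series. Resting *Ahr*-/- libraries held 10.5, 11.1, 8.30 and 9.71 CPM and activated ones 17.3, 17.7, 15.7 and 12.1 CPM, again without overlap, a 1.59-fold rise (log2 fold change 0.67 ± 0.16, adjusted p = 0.000265, edgeR).

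At 20 h, resting *Ahr*+/+ libraries held 10.8, 12.6, 11.4 and 11.6 CPM of *Igf1r* and activated ones 1.98, 1.38, 2.42 and 1.92 CPM. These activated libraries rest on 37 to 90 counts each. The fall was by 2.58 ± 0.18 on the log2 scale, 5.99-fold lower (adjusted p = 4.89e-19, edgeR). The resting *Ahr*-/- libraries held 10.6, 13.1, 11.4 and 11.2 CPM and activated ones 4.46, 4.69, 3.75 and 3.79 CPM, on 102 to 206 counts, 2.77-fold lower (log2 fold change -1.47 ± 0.17, adjusted p = 2.71e-11, edgeR).

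*Igf1r* therefore differed between genotypes after 20 h of activation in the direction opposite to *Igf1*. Activated *Ahr*-/- BMMs held 4.17 ± 0.472 CPM (SD, n = 4) against 1.92 ± 0.425 in *Ahr*+/+ BMMs, 2.15-fold higher without overlap (log2 fold change 1.11 ± 0.18, adjusted p = 6.22e-06, edgeR). The activation responses differed by 1.11 ± 0.24 (adjusted p = 0.00124, edgeR interaction). With *Ahr*-/- libraries 1 and 2 alone the genotypes differed by 1.24 (adjusted p = 4.59e-06) and with 3 and 4 alone by 0.96 (adjusted p = 0.000112). In resting BMMs the means were 8.71 and 9.90 CPM at 3 h and 11.6 in each genotype at 20 h, and the log2 fold changes of 0.19 (adjusted p = 0.869) and -0.00 (adjusted p = 1.00) did not pass the test. After 20 h of activation every *Ahr*-/- group mean lay at 3.46 CPM or higher and every *Ahr*+/+ group mean at 1.92 CPM or lower, ligand groups included, and this step exceeded the larger SD of its neighbours.

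*Insr*, the insulin receptor, moved the other way in time. In *Ahr*+/+ BMMs at 3 h, resting libraries held 28.5, 30.3, 26.3 and 27.2 CPM and activated libraries 12.7, 11.2, 12.7 and 9.63 CPM, 2.44-fold lower without overlap (log2 fold change -1.29 ± 0.18, adjusted p = 5.77e-09, edgeR). For *Ahr*-/- BMMs the values were 35.7, 24.4, 29.6 and 28.8 CPM at rest and 12.1, 9.38, 14.3 and 14.6 CPM on activation, 2.36-fold lower (log2 fold change -1.24 ± 0.17, adjusted p = 1.00e-08, edgeR). The 6 activated groups at 3 h had means between 11.1 and 12.6 CPM, and only the step from them to the other 10 groups exceeded the SDs of its neighbours.

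After 20 h, *Insr* had passed its resting level in *Ahr*+/+ BMMs. Resting libraries held 26.5, 29.7, 29.0 and 24.9 CPM and activated libraries 41.3, 41.3, 39.0 and 35.7 CPM, 1.43-fold higher (log2 fold change 0.51 ± 0.16, adjusted p = 0.00516, edgeR). The groups did not overlap, but the call was lost without resting library 1 or 4 or activated library 1 or 2 (adjusted p = 0.0138 to 0.0209). In *Ahr*-/- BMMs the groups overlapped, with 21.6, 23.4, 35.7 and 34.1 CPM at rest and 30.5, 25.8, 38.5 and 39.8 CPM on activation (log2 fold change 0.22 ± 0.16, 95% interval -0.11 to 0.56, adjusted p = 0.236, edgeR). The responses of the genotypes differed by -0.29 (adjusted p = 0.535), which does not show that they were alike.

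*Igf2r*, which clears IGF2 and sorts lysosomal enzymes, moved least. At 3 h it rose 1.23-fold in *Ahr*+/+ BMMs, with 214 to 229 CPM at rest and 256 to 297 on activation (adjusted p = 0.00214), and 1.46-fold in *Ahr*-/- BMMs, with 189 to 228 and 271 to 352 CPM (adjusted p = 2.40e-07, edgeR). At 20 h its level was 1.14-fold lower in *Ahr*+/+ BMMs (209 to 236 CPM at rest, 179 to 208 on activation, adjusted p = 0.0467) and 1.13-fold lower in *Ahr*-/- BMMs (204 to 212 against 168 to 208 CPM, adjusted p = 0.0656). Neither passed the threshold of 0.01, and with *Ahr*-/- libraries 3 and 4 alone the second did, at -0.32 on the log2 scale (adjusted p = 0.00106, edgeR). With libraries 1 and 2 alone it did not. Their means were 205 CPM at rest and 198 on activation, beside 210 and 168 in libraries 3 and 4. Over the 16 groups the only step wider than the SDs separated the 6 activated groups at 3 h, at 276 to 316 CPM, from the 10 others.

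*Irs2*, the adaptor that links both kinase receptors to PI3K, fell at 3 h in both genotypes. Resting *Ahr*+/+ libraries at 3 h held 11.9, 10.6, 11.7 and 11.6 CPM and activated ones 2.46, 2.66, 2.28 and 1.81 CPM, on 28 to 47 counts. That was a fall by 2.31 ± 0.24 on the log2 scale, 4.94-fold lower (adjusted p = 1.26e-12, edgeR). Resting *Ahr*-/- libraries held 13.1, 14.7, 11.4 and 11.3 CPM and activated ones 6.23, 9.61, 5.29 and 5.18 CPM, 1.91-fold lower (log2 fold change -0.93 ± 0.21, adjusted p = 9.76e-05, edgeR). Groups did not overlap in either genotype.

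All activated *Ahr*-/- libraries at 3 h therefore lay above all activated *Ahr*+/+ libraries, at 6.58 ± 2.08 against 2.30 ± 0.362 CPM (SD, n = 4), 2.86-fold higher (log2 fold change 1.52 ± 0.24, adjusted p = 4.04e-05, edgeR). *Ahr*-/- library 2 stood highest of the 4. The difference was 1.78 with libraries 1 and 2 alone (adjusted p = 8.89e-05) and 1.18 with 3 and 4 alone (adjusted p = 0.00735), and 1.28 to 1.60 when any 1 library was left out, but a fit of the compared groups alone lost the call (adjusted p = 0.0105). The difference of the activation responses, 1.37 ± 0.31, did not pass the threshold (adjusted p = 0.0624, edgeR), and passed with DESeq2 (adjusted p = 0.00992).

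By 20 h *Irs2* lay closer to rest in *Ahr*+/+ BMMs, while in *Ahr*-/- BMMs the difference of its response between the times was not called. *Ahr*+/+ libraries held 12.9, 12.9, 11.5 and 10.2 CPM at rest and 7.95, 7.62, 5.72 and 4.15 CPM on activation, 1.88-fold lower (log2 fold change -0.91 ± 0.20, adjusted p = 9.79e-05). *Ahr*-/- libraries held 12.05, 14.5, 14.8 and 14.1 CPM at rest and 7.69, 9.52, 8.13 and 9.37 CPM on activation, 1.59-fold lower (log2 fold change -0.67 ± 0.20, adjusted p = 0.00299, edgeR), a call lost without activated library 1 or 3 (adjusted p = 0.0128 and 0.0101) and with either pair of *Ahr*-/- libraries alone. Activated genotypes overlapped at 20 h, and their log2 fold change of 0.46 did not pass the test (adjusted p = 0.105).

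*Igfbp4*, the binding protein, rose in culture and fell on activation. Resting *Ahr*+/+ libraries held 81.9, 85.8, 88.5 and 99.8 CPM at 3 h and 206, 255, 181 and 250.4 CPM at 20 h, 2.51-fold higher at 20 h (log2 fold change 1.33 ± 0.16, adjusted p = 2.65e-08, edgeR). Resting *Ahr*-/- libraries rose from 66.4, 80.4, 59.1 and 58.6 to 202, 225, 152 and 154 CPM, 2.77-fold (log2 fold change 1.47 ± 0.16, adjusted p = 2.54e-09, edgeR). It was the only 1 of the 6 called between the times at rest, where 6.07% of all genes were called in *Ahr*+/+ and 6.98% in *Ahr*-/- BMMs.

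On activation, *Igfbp4* held 55.2, 65.5, 58.2 and 66.5 CPM in *Ahr*+/+ BMMs at 3 h and 29.2, 27.5, 35.9 and 38.8 CPM at 20 h, all below rest. It was 1.45-fold lower at 3 h (log2 fold change -0.54 ± 0.16, adjusted p = 0.00327) and 6.79-fold lower at 20 h (-2.76 ± 0.17, adjusted p = 6.70e-21, edgeR). Activated *Ahr*-/- libraries held 53.1, 49.6, 42.8 and 37.3 CPM at 3 h, 1.45-fold lower (-0.53 ± 0.16, adjusted p = 0.00347), and 43.4, 41.8, 27.9 and 30.4 CPM at 20 h, 5.11-fold lower (-2.35 ± 0.17, adjusted p = 2.87e-18, edgeR). Both calls at 3 h were lost without some single libraries: activated library 1 or 3 or resting library 4 in *Ahr*+/+ BMMs (adjusted p = 0.0145 to 0.0257), and resting library 2 or activated library 3 or 4 in *Ahr*-/- BMMs (0.0194 to 0.0371). Part of the distance at 20 h lies in the resting groups, which had risen.

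The resting genotypes did not overlap for *Igfbp4* at 3 h. The share of all genes without overlap between genotypes was not counted, for this or the other groups. There it lay at 66.1 ± 10.1 CPM in *Ahr*-/- against 89.0 ± 7.69 in *Ahr*+/+ BMMs (SD, n = 4), but the log2 fold change of -0.43 did not pass the test (adjusted p = 0.216, edgeR). With *Ahr*-/- libraries 3 and 4 alone it was -0.60 (adjusted p = 0.00273, edgeR), and with 1 and 2 alone it was not called. The mean was 73.4 CPM in resting *Ahr*-/- libraries 1 and 2 at 3 h and 58.9 in 3 and 4. In activated BMMs at 3 h, *Igfbp4* and *Igf1* were lower in every *Ahr*-/- library than in every *Ahr*+/+ library, with log2 fold changes of -0.43 (adjusted p = 0.117) and -0.27 (adjusted p = 0.216) that did not pass the test. At 20 h on activation the genotypes overlapped for *Igfbp4*, with a log2 fold change of 0.12 (adjusted p = 0.658).

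Most genes were called on activation, and the counts of the 6 stand beside that background. In *Ahr*+/+ BMMs, 5 of 6 were called at 3 h and 5 of 6 at 20 h, where 56.6% and 58.6% of all genes were called, and in *Ahr*-/- BMMs 5 of 6 and 4 of 6, where 57.3% and 54.3% were. At 3 h, 2 were higher and 3 lower in each genotype, with 24.2% of genes higher and 32.3% lower in *Ahr*+/+ and 25.5% and 31.8% in *Ahr*-/- BMMs. At 20 h, 1 was higher and 4 lower in *Ahr*+/+ BMMs (all genes 29.9% and 28.7%), and none was higher and 4 lower in *Ahr*-/- BMMs (28.3% and 26.0%). At 20 h the median log2 fold change of the 6 was -1.52 for *Ahr*+/+ BMMs, beside -0.00 over all genes, and -1.07 for *Ahr*-/- BMMs, beside 0.02. At 3 h it was -0.24 and -0.29, beside -0.10 and -0.08.

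**Figure D2:**
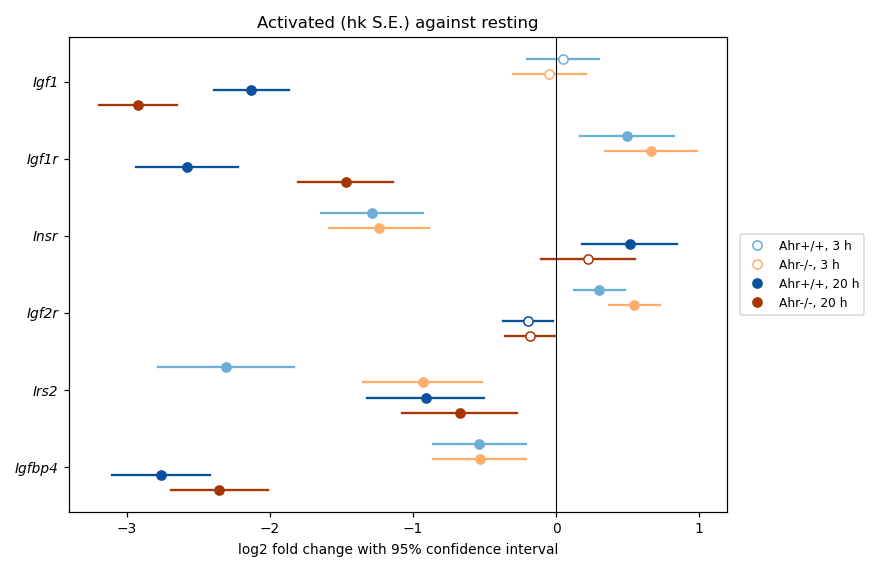
Log2 fold change (x axis) of activated against resting BMMs for each gene, as the edgeR estimate with its 95% confidence interval, in *Ahr*+/+ (blue) and *Ahr*-/- (orange) BMMs at 3 h (light) and 20 h (dark), with filled points where the adjusted p was below 0.01. *Igf1*, *Igf1r* and *Igfbp4* lie furthest to the left at 20 h, and *Insr* and *Irs2* furthest to the left at 3 h.

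Nearly every response differed between 3 h and 20 h. Between the times in activated BMMs, all 6 were called in *Ahr*+/+ (59.5% of all genes) and 4 in *Ahr*-/- BMMs (56.0%), where *Irs2* (log2 fold change 0.39, adjusted p = 0.0936) and *Igfbp4* (-0.35, adjusted p = 0.0553) were not. The series of library identifiers of activated *Ahr*-/- BMMs differed wholly between 3 h and 20 h. Time and library series cannot be told apart in that comparison. The activation response itself differed between times for all 6 in *Ahr*+/+ BMMs, from -3.07 for *Igf1r* to 1.80 for *Insr* on the log2 scale, where 47.8% of all genes were called. In *Ahr*-/- BMMs it differed for 5, from -2.88 for *Igf1* to 1.46 for *Insr*, with 44.7% of all genes called, and not for *Irs2* (0.26, adjusted p = 0.467).

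Genotype calls were rarer. None of the 6 was called between resting genotypes, where 1.21% of all genes were at 3 h and 0.702% at 20 h. In activated BMMs, 1 of 6 was called at 3 h (*Irs2*, all genes 2.83%) and 2 of 6 at 20 h (all genes 12.5%), *Igf1r* higher and *Igf1* lower in *Ahr*-/- BMMs, where 5.06% of all genes were higher and 7.39% lower. Activation by genotype called none at 3 h (all genes 0.0138%) and the same 2 at 20 h (all genes 4.41%). At 20 h the series of library identifiers of the activated groups was one in *Ahr*+/+ and another in *Ahr*-/- BMMs, so that genotype and library series cannot be told apart there.

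Other values moved with genotype in the same activated libraries at 20 h. The 5 dendritic cell markers summed to 20.3 to 39.6 CPM in *Ahr*+/+ against 3.82 to 8.54 in *Ahr*-/- BMMs, most of it *Ccr7*, which activated macrophages can also express. Over all libraries *Xcr1* and *Siglech* did not exceed 0.161 CPM. The 8 fibroblast markers summed to 4.21 to 6.13 against 8.02 to 10.2 CPM, while 7 of the 8, every one but *Pdgfrb*, had a median below 1 CPM over all libraries. Their part in the differences of *Igf1* and *Igf1r* was not tested, and in such bulk samples fewer cells of a kind and less RNA per cell cannot be told apart.

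None of the 6 genes passed the threshold of the edgeR test with either AhR ligand in either genotype. Against DMSO in activated *Ahr*+/+ BMMs, 0 of 6 were called with BaP at 3 h and 20 h (all genes 0.0482% and 0.234%) and 0 of 6 with I3C (0.131% and 0.509%) in the edgeR test. In *Ahr*-/- BMMs, 0 of 6 were called with BaP (all genes 0.0275% and 0.0138%) and 0 of 6 with I3C (0.0206% and 0.206%). At an unadjusted p below 0.05 there was 1 of 6 with BaP (all genes 10.4%) and 2 of 6 with I3C (all genes 5.72%) in *Ahr*+/+ BMMs at 20 h, and none in the other 6 comparisons, where 1.77% to 5.93% of all genes were. DESeq2 and limma on variance-stabilized values, as run here, also called none in these 8 comparisons. In the paper, DESeq2 at 0.01 called *Igf1r* lower with I3C and *Igf1* higher with BaP in *Ahr*+/+ BMMs at 20 h. Its RT-qPCR over a range of doses also gave lower *Igf1r* with I3C, and higher *Igf1r* with BaP. What sets the paper's calls apart from the fits here was not tested. A fit with a block for the replicate number did call *Igf1r* with I3C in *Ahr*+/+ BMMs at 20 h, as given at the end.

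The nearest to the threshold in the edgeR test was *Igf1r* with I3C in *Ahr*+/+ BMMs at 20 h. Activated libraries held 1.98, 1.38, 2.42 and 1.92 CPM with DMSO and 0.978, 1.07, 1.77 and 0.766 CPM with I3C, on 21 to 47 counts. The library with 1.77 CPM overlapped the DMSO group and the other 3 lay below it. The log2 fold change was -0.75 ± 0.21 with a 95% interval from -1.17 to -0.33 (adjusted p = 0.0647, edgeR), and without I3C library 3 it was -1.05 (adjusted p = 0.00686). The *Ahr*-/- libraries with I3C held 3.48, 4.68, 2.47 and 3.20 CPM and the log2 fold change was -0.27 (adjusted p = 0.999). The difference of these effects, -0.48 ± 0.27, did not pass the test (adjusted p = 0.987, edgeR).

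*Igf1* with BaP was the other value of note at 20 h. *Ahr*+/+ libraries held 237, 209, 187 and 228 CPM with BaP and 208, 181, 172 and 188 CPM with I3C, beside 192, 176, 146 and 169.7 with DMSO. BaP and DMSO overlapped in 1 library of each group, and the log2 fold change of 0.33 (95% interval 0.08 to 0.59) did not pass the test (adjusted p = 0.270, edgeR). The *Ahr*-/- value was 0.02 (adjusted p = 1.00), with 82.1, 95.5, 111 and 113 CPM. *Igfbp4* in *Ahr*+/+ BMMs lay at 24.7, 24.4, 29.6 and 28.4 CPM with BaP (log2 fold change -0.30, adjusted p = 0.550) and at 23.3, 22.3, 27.8 and 28.2 CPM with I3C (-0.37, adjusted p = 0.679).

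*Insr*, *Igf2r* and *Irs2* gave log2 fold changes between -0.12 and 0.20 in the 4 ligand comparisons at 20 h, and their intervals lay within -0.47 and 0.60. At 3 h the ligand effects on the 6 genes ran from -0.16 to 0.45 over both genotypes, the latter being *Irs2* with I3C in *Ahr*+/+ BMMs (95% interval -0.07 to 0.97, adjusted p = 1.00). These intervals leave room for changes of that size.

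BaP and I3C were given at different doses, so their values stand side by side only. The difference between these exposures in *Ahr*+/+ BMMs called 0 of 6 at 3 h (all genes 0.110%) and 0 of 6 at 20 h (all genes 0.282%). It was widest for *Igf1r* at 20 h, at 0.53 ± 0.21 (adjusted p = 0.561, edgeR). Ligand by genotype called 0 of 6 in the 4 interactions, in which 0.0138% of all genes were called for BaP at 3 h and 0% for BaP at 20 h and for I3C at both times.

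**Figure D3:**
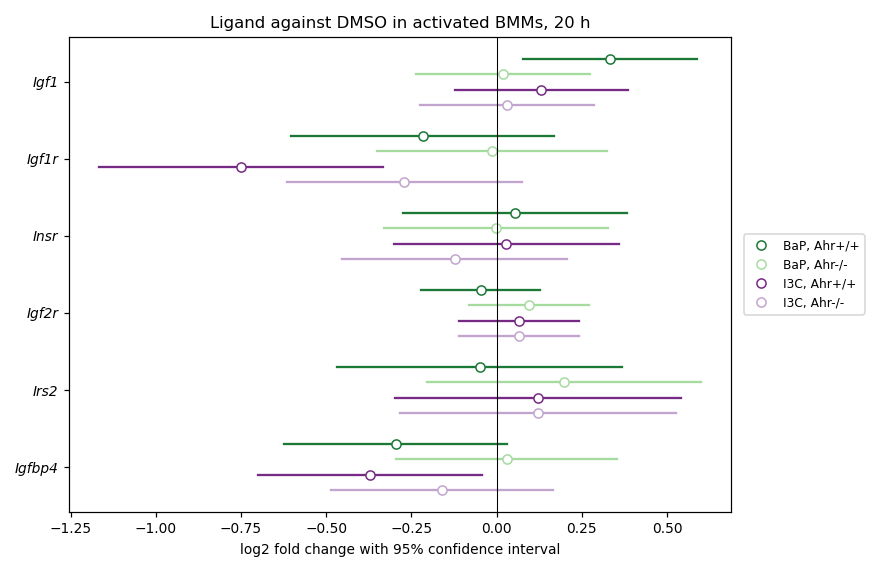
Log2 fold change (x axis) of ligand against DMSO in activated BMMs at 20 h for each gene, as the edgeR estimate with its 95% confidence interval, for BaP (green) and I3C (purple) in *Ahr*+/+ (dark) and *Ahr*-/- (light) BMMs. All points are open because no adjusted p was below 0.01, and *Igf1r* with I3C in *Ahr*+/+ BMMs, at -0.75, lies furthest from 0.

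The split of the *Ahr*-/- libraries, seen in at least 6 of 8 groups for 35.3% of all genes tested, touched 5 of the 6 genes. Of the *Ahr*-/- libraries, 1 and 2 both lay below 3 and 4 in 7 of 8 groups for *Igf1* and for *Insr*. They both lay above 3 and 4 in 7 of 8 groups for *Igf1r* and *Igf2r* and in 8 of 8 for *Igfbp4*, while *Irs2* showed no side, with 3 groups above and 1 below. The median ratio of the mean of libraries 1 and 2 to that of 3 and 4 was 0.816 for *Igf1*, 0.724 for *Insr*, 1.21 for *Igf1r*, 1.19 for *Igf2r* and 1.39 for *Igfbp4*. In *Ahr*+/+ BMMs the corresponding ratios were 1.05, 1.06, 0.860, 0.977 and 0.890. For *Irs2* the median ratio was 1.11 in *Ahr*-/- and 1.22 in *Ahr*+/+ BMMs. *Ahr*+/+ libraries 1 and 2 both lay above 3 and 4 in 5 of 8 groups for *Irs2*, and below them in 5 of 8 for *Igfbp4*.

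Resting *Ahr*-/- library 1 at 3 h was an exception to this split. Its deviations from the group mean correlated on average at 0.287 and 0.278 with libraries 3 and 4 of the other *Ahr*-/- groups and at -0.232 and -0.262 with libraries 1 and 2, and it held 877 CPM of *Igf1*, above 528, 631 and 639.6. The sum of macrophage markers moved with the split: in activated *Ahr*-/- BMMs at 20 h it was 26814 to 30321 CPM in libraries 1 and 2 and 18737 to 19226 in 3 and 4. Its part in the values of the 6 genes was not tested. With libraries 1 and 2 alone, *Insr* was lower in activated *Ahr*-/- than *Ahr*+/+ BMMs at 20 h (log2 fold change -0.48, adjusted p = 0.00510), and with 3 and 4 alone it was -0.00.

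**Figure D4:**
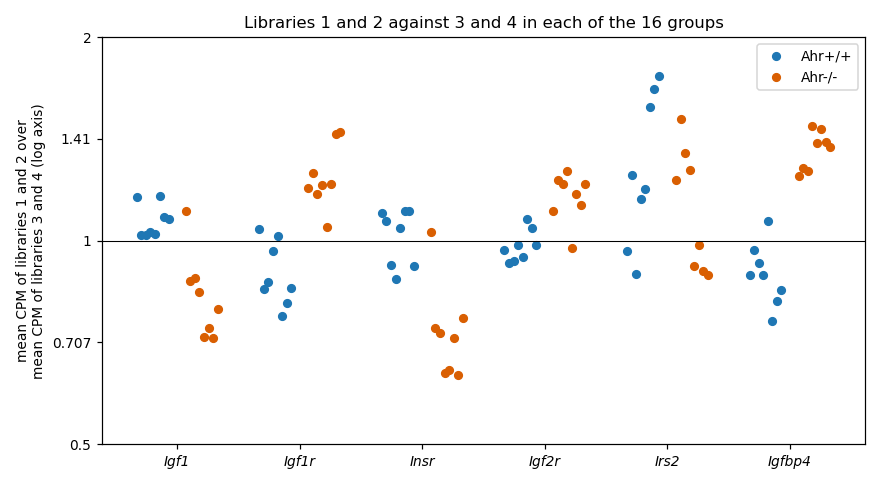
Mean CPM of libraries 1 and 2 divided by that of libraries 3 and 4 (y axis, log scale) for each gene in each of the 8 *Ahr*+/+ (blue) and 8 *Ahr*-/- (orange) groups, with a line at 1. *Ahr*-/- groups lie mostly below 1 for *Igf1* and *Insr* and above 1 for *Igf1r*, *Igf2r* and *Igfbp4*, with medians of 0.816, 0.724, 1.21, 1.19 and 1.39.

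Of 81 other genes of the pathway, 64 were tested. The ligands were hardly counted: *Igf2*, *Ins1*, *Ins2*, *Rln1* and *Insl3* had at most 1 count in any library, and the adaptor *Irs1*, a relative of *Irs2*, at most 29. On activation of *Ahr*+/+ BMMs, 22 of 64 were higher and 21 lower at 3 h (all genes 24.2% and 32.3%), and 32 higher and 18 lower at 20 h (all genes 29.9% and 28.7%). The counts for *Ahr*-/- BMMs were 23 higher and 20 lower at 3 h (all genes 25.5% and 31.8%), and 34 higher and 17 lower at 20 h (all genes 28.3% and 26.0%). Counts by role in *Ahr*+/+ BMMs stand beside the same shares. No ligand comparison and no ligand by genotype interaction called any of the 64.

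Negative regulators held the largest rises. Of 13 tested in *Ahr*+/+ BMMs, 6 rose and 3 fell at 3 h, and 5 rose and 4 fell at 20 h. *Socs3* and *Socs1*, suppressors of cytokine signaling that can also bind the insulin receptor, rose by 8.01 ± 0.21 and 8.47 ± 0.34 on the log2 scale at 3 h and by 6.96 and 5.72 at 20 h. *Trib3*, a pseudokinase that binds AKT, fell by 1.97 at 3 h and rose by 6.31 ± 0.21 at 20 h. *Enpp1*, a membrane protein that inhibits the insulin receptor, fell by 0.80 at 3 h and by 4.24 ± 0.27 at 20 h.

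Among 11 adaptors, 2 rose and 5 fell at 3 h, and 9 rose and 1 fell at 20 h. *Nck1* rose by 2.98 and 0.73 on the log2 scale and *Gab1* fell by 1.98 and 1.24 at the respective times, while *Sh2b2* and *Sh2b1* fell by 1.43 and 1.12 at 3 h and rose by 0.83 and 0.44 at 20 h. Of 12 PI3K and AKT genes, 7 rose and 1 fell at 3 h, and 4 rose and 5 fell at 20 h. *Pik3r5*, a regulatory subunit, rose by 1.95 and 0.84, and *Pik3r2*, another regulatory subunit, fell by 2.06 and 0.68, while *Pik3cd* rose by 0.85 at 3 h and fell by 0.44 at 20 h.

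Further down the pathway, 3 of 5 FOXO and GSK3 genes fell at both times. *Foxo3* fell by 3.76 ± 0.14 on the log2 scale at 3 h and by 1.13 at 20 h, *Foxo4* by 1.79 and 1.20 and *Foxo1* by 1.21 and 0.68. FOXO factors are known to drive *Irs2* and *Insr* transcription in other tissues, and their part in the values above was not tested. *Gsk3b* rose by 0.91 at 20 h, with -0.06 at 3 h (adjusted p = 0.781, edgeR).

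Of 13 mTOR genes, 3 rose and 7 fell at 3 h, and 5 rose and 4 fell at 20 h. The mTOR inhibitor *Deptor* fell by 1.69 and 5.94, and *Sesn1*, a sestrin that restrains mTORC1, by 5.47 and 4.96, while *Sesn2* and *Ddit4* fell by 2.37 and 2.24 at 3 h and rose by 2.23 and 1.30 at 20 h. Of 5 glucose and glycogen genes, 2 rose and 2 fell at 3 h, and 3 rose and 1 fell at 20 h. The hexokinase *Hk2* rose by 2.54 and 1.68 and the glucose transporter *Slc2a1* by 1.52 and 1.80, *Tbc1d4*, an AKT substrate in glucose uptake, fell by 2.50 and 2.23, and the glycogen synthase *Gys1* rose by 1.49 at 20 h, with -0.59 at 3 h (adjusted p = 0.0723, edgeR).

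**Figure D5:**
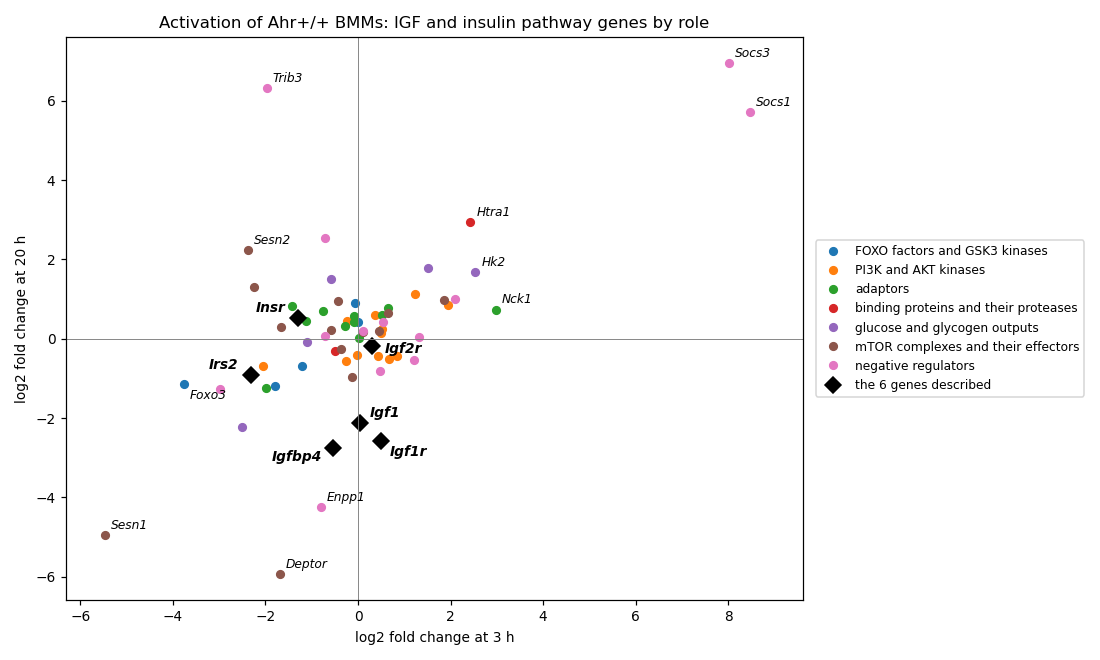
Log2 fold change on activation of *Ahr*+/+ BMMs at 3 h (x axis) and 20 h (y axis) for 61 tested pathway genes coloured by role and for the 6 genes described (black diamonds). *Igfbp6*, *Igfbp7* and *Stc2* are left out because their resting counts are near 0. *Socs1* and *Socs3* lie at the upper right, *Trib3* and *Sesn2* at the upper left, and *Igf1*, *Igf1r* and *Igfbp4* in the lower centre.

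Among 5 tested binding proteins and their proteases, 2 rose at 3 h and 4 at 20 h, and none fell in *Ahr*+/+ BMMs. *Htra1*, a protease that cuts IGF binding proteins, rose by 2.42 ± 0.23 and 2.94 ± 0.23 on the log2 scale. *Igfbp7* had 0 to 0.0943 CPM in resting and 4.68 to 8.54 in activated *Ahr*+/+ BMMs at 20 h (adjusted p = 2.76e-13), and *Igfbp6* 0.0169 to 0.0710 and 0.724 to 1.48 (adjusted p = 1.87e-10). *Stc2*, an inhibitor of the protease that cuts IGFBP4, had 0 to 0.0314 and 0.225 to 0.534 CPM (adjusted p = 1.07e-07, edgeR). No fold is given for these 3 because their resting counts were near 0.

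Between activated genotypes at 20 h, 4 of the 64 were higher and 5 lower in *Ahr*-/- BMMs, where 5.06% of all genes were higher and 7.39% lower. *Deptor* was higher by 1.60 ± 0.36 and *Sesn1* by 0.78 ± 0.18 on the log2 scale, *Stc2* and *Ide* were also higher, and *Tbc1d4* (-1.58 ± 0.22), *Phlpp1* (-0.98), *Trib3* (-0.73), *Pik3cb* and *Inppl1* were lower. The count of 9 became 18 with *Ahr*-/- libraries 1 and 2 alone and 14 with 3 and 4 alone. Activation by genotype at 20 h called 5 of 64 (all genes 4.41%), *Deptor* (1.70) and *Pik3cg* (0.76) upwards and *Tbc1d4* (-1.73), *Trib3* (-1.26) and *Phlpp1* (-0.98) downwards.

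Over the 16 group means of log2 CPM, *Insr* and *Igf2r* moved in opposite directions, with a Pearson r of -0.96, and *Igf1* and *Igf1r* ran together at 0.79, as a description over groups that share genotype, time or activation. The genes most like each were *Emp1*, *Slc6a6* and *Cpt1a* for *Igf1* (r = 0.997, 0.996 and 0.994), *Gm9800*, *Rpl37a* and *Fn1* for *Igf1r* (0.988, 0.986 and 0.985) and *Dcaf5*, *Nr2c2* and *Tcta* for *Insr* (each 0.997). For *Igf2r* they were *Ccdc88c*, *Asap1* and *Apbb1ip* (0.989, 0.988 and 0.987), for *Irs2* *Rpap1*, *Tmem181b-ps* and *Ndor1* (0.948, 0.946 and 0.946) and for *Igfbp4* *Tmem106c*, *Slco2b1* and *Ncapd2* (each 0.962). *Tmem181b-ps* is named as a pseudogene and may share reads with its near-identical copy. *Irs2* was the 1 gene of the 6 without a partner above 0.95.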

How the data were processed

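RNA of BMMs was measured in 64 libraries. The authors removed adapters, aligned read pairs to mm10 with HISAT2 2.1.0 and made the deposited counts per gene with HTSeq 0.9.1, without normalization. They also deposited variance-stabilized log2 values made with DESeq2. Each count file ends in 5 entries that name no gene, with 19.2% to 25.1% of read pairs, which were left out. Samples were grouped by their labels. Symbols and positions came from GENCODE M21, and promoter sequences from RefSeq. No source used here ties a library to 1 of the 4 mice, so p-values measure only the spread between these libraries, which may be technical.

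Tests ran on the counts in edgeR 4.0.16 (R 4.3.3), with filterByExpr at a min.count of 10, TMM, and a quasi-likelihood fit of 16 group means over 64 libraries with 48 residual degrees of freedom. The 30 comparisons were adjusted by Benjamini-Hochberg over the 14537 genes of each, and called below 0.01. Intervals are at 95%. The fit was also run on simulated counts, drawn independently for each library. These held no split of the *Ahr*-/- libraries and no library series, so that run cannot show how the test behaves under either. Alternatives were RLE size factors, no filter, a min.count of 50, DESeq2 1.42.0, limma 3.58.1 on the log2 values, the compared groups alone, a replicate block, a covariate for the library identifier series, a threshold of 0.05, leaving out each library, and each pair of *Ahr*-/- libraries alone, the last added after the data were seen. The study named the 0.01 threshold with DESeq2. The 6 genes, the pathway and marker lists and the motifs were chosen with earlier results of these data known. Pathway genes named are those called in *Ahr*+/+ activation, at most 4 per role by size, with 1 gene counted but not reported here by name, and the others given for genotype were named after their values were seen. For each gene the 3 genes with the highest correlation over groups are named.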

Additional observations from a re-analysis of the deposited data

Results flagged for a closer look

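In 3 of 96 gene and group pairs, 1 of 4 libraries lay far from the others, and chance alone gives about 1 in 20. *Igf2r* in resting *Ahr*-/- BMMs at 3 h was lowest in library 3, at 189 CPM, beside 222 to 228 in the other libraries. *Igf2r* in resting *Ahr*+/+ BMMs at 20 h was highest in library 3, at 236 CPM, beside 209 to 212. *Irs2* in *Ahr*+/+ BMMs with BaP at 3 h was lowest in library 4, at 1.93 CPM, beside 2.71 to 2.87.

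The activation response differed between groups in 13 tests of the difference itself. Between genotypes at 20 h (*Ahr*-/- minus *Ahr*+/+), it differed by -0.79 on the log2 scale for *Igf1* and by 1.11 for *Igf1r*. Between times (20 h minus 3 h) in *Ahr*+/+ BMMs, it differed by -2.18 for *Igf1*, -3.07 for *Igf1r*, 1.80 for *Insr*, -0.50 for *Igf2r*, 1.40 for *Irs2* and -2.23 for *Igfbp4*. In *Ahr*-/- BMMs it differed by -2.88 for *Igf1*, -2.14 for *Igf1r*, 1.46 for *Insr*, -0.73 for *Igf2r* and -1.82 for *Igfbp4*.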

How the results depend on the processing

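Of 1644 log2 fold changes of the 6 genes under alternatives, 10 lost and 16 gained the call. Sign differed in 75, of which 0 were called in either fit, with sizes of at most 0.17 as reported and 0.29 under the alternative. In 1 of the 75 both values had an unadjusted p below 0.32, counted here as a change of direction: *Igf1* between times in resting *Ahr*-/- BMMs was -0.16 with *Ahr*-/- libraries 1 and 2 alone in place of 0.17. With 1 library left out, 17 of 1824 lost and 1 gained the call, and sign differed in 164, of which 0 were called in either fit and 0 met that rule. RLE size factors, a min.count of 50 and limma on the deposited log2 values changed no call.

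Calls of the 6 genes moved as follows, and the causes were not tested. Fits of either pair of *Ahr*-/- libraries leave out the spread between the pairs, so their adjusted p-values can be too small. With *Ahr*-/- libraries 1 and 2 alone, activation at 3 h in *Ahr*-/- BMMs called 3 in place of 5 (without *Igfbp4* and *Irs2*), activation at 20 h lost *Irs2*, activated genotypes at 3 h called 2 in place of 1 (with *Igf2r*), and those at 20 h 3 in place of 2 (with *Insr*). With 3 and 4 alone, genotypes called 2 at rest at 20 h (*Insr* and *Igfbp4*) and 1 at rest at 3 h (*Igfbp4*) in place of 0, and 2 when activated at 3 h (with *Igfbp4*), and times in *Ahr*-/- BMMs called 2 in place of 1 at rest (with *Igf1*) and 5 in place of 4 on activation (with *Igfbp4*). That pair also gained *Igf2r* and lost *Irs2* for activation at 20 h in *Ahr*-/- BMMs. The other pathway genes called between activated genotypes at 20 h were 18 and 14 with these pairs, in place of 9. A fit of the compared groups alone called 1 in place of 2 for activation by genotype at 20 h and 0 in place of 1 between activated genotypes at 3 h, and lost *Igfbp4* for activation of *Ahr*-/- BMMs at 3 h. Without the filter, *Igf1r* was lost for activation of *Ahr*+/+ BMMs at 3 h. The library series as a covariate left 3 of 5 for activation of *Ahr*+/+ BMMs at 3 h, with *Igf1r* among those lost. DESeq2 called 1 in place of 0 for activation by genotype at 3 h. With each library left out, counts ranged from 3 to 5 for activation of *Ahr*+/+ BMMs at 3 h and from 4 to 5 at 20 h, from 4 to 5 for activation of *Ahr*-/- BMMs at 3 h and from 3 to 4 at 20 h, from 1 to 2 for activation by genotype at 20 h and from 0 to 1 for I3C in *Ahr*+/+ BMMs at 20 h.

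Replicate numbers are shared across groups, but no source used here says that a number marks a mouse. By deviations from group means, 31 of 32 *Ahr*+/+ and 25 of 32 *Ahr*-/- libraries correlated best with their own number, a hint from the data. With the replicate block, the count rose from 1 to 2 between times at rest in *Ahr*+/+ BMMs (with *Igf1r*, adjusted p = 0.00729), and from 0 to 1 for I3C in *Ahr*+/+ BMMs at 20 h (*Igf1r*, adjusted p = 0.00884) and for activation by genotype at 3 h (*Irs2*, adjusted p = 0.00153). It also called *Igf2r* for activation at 20 h in *Ahr*+/+ (adjusted p = 0.00486) and *Ahr*-/- BMMs (adjusted p = 0.00543) and *Igfbp4* between times in activated *Ahr*-/- BMMs (adjusted p = 0.000373), 6 calls gained in all with none lost. The block could not be fitted between genotypes.

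*Igf1r* and *Irs2* in activated BMMs rest on as few as 21 and 27 counts a library, which limits their precision.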
